A study of Homo sapiens with 6 samples.

Results

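The genes described here are 41 genes of the unfolded protein response and of ATF4, taken as a named list out of 43260 annotated genes with a matching probe, and measured on 6 Agilent arrays of 1 color whose 125601 probes cover mRNAs and lncRNAs. A member was represented by its brightest probe, and since the scanner files give only a probe name where a gene name could stand, probes were assigned to genes by an exact match of the probe sequence to a sense transcript of GENCODE release 44. A probe was found for 40 of the 41 genes, 37 of them were tested, and 36 were well above background on all 6 arrays. ASNS had no exactly matching probe, PSPH and FGF21 were well above background on 0 arrays, and STC2 was well above background on 4.

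The RNA came, per the paper, from SKOV-3, an established human ovarian cancer cell line, whereas the array titles read SKOV-1. The first 3 arrays, called VD arrays 1, 2 and 3 here after the array titles, are labelled as cells given 100 nmol/L 1,25(OH)2D3, the hormonally active form of vitamin D, for 72 h, and vehicle arrays 1, 2 and 3 as cells given ethanol alone for the same time. Every array therefore shares 1 cell line, and the labels do not say whether replicates came from separate cultures, so that p-values measure only the spread between these samples, which may be technical. VD arrays 1 and 2 were on slide 1, and VD array 3 and the vehicle arrays were on slide 2.

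One measurement bears on the labels themselves. CYP24A1 encodes the enzyme that degrades 1,25(OH)2D3 and is a classical target of the vitamin D receptor. On a log2 scale with the 75th percentile of each array at 0, the scale of all signals given below, it read -5.10 on VD array 1, 6.70 on VD array 2 and -3.80 on VD array 3, and 6.90, -2.48 and 7.29 on vehicle arrays 1, 2 and 3, and on the 3 arrays with a negative value it was not well above background. A second probe of the gene was highest on the same 3 arrays, with vehicle array 2 at 1.07, which was well above background, and VD arrays 1 and 3 at -3.16 and -2.63, which were not. High signals thus stood on 1 VD array and 2 vehicle arrays, and only the arrays numbered 2 differed in the direction of their labels. For the first probe the mean of the VD arrays minus that of the vehicle arrays was -4.64, so CYP24A1 was lower under the VD label. The paper, in contrast, names CYP24A1 as its most upregulated mRNA in treated cells. It also reports, by quantitative RT-PCR in SKOV3 and OVCAR8 cells, a strong rise of CYP24A1 after treatment. Whether the labels match the treatments was not tested, and no groups were formed by CYP24A1. All directions below are therefore directions between labels and are not read as effects of 1,25(OH)2D3. Arrays are named by label throughout. As a check of the cell type, all 8 of the ovarian carcinoma markers with a probe, KRT7, KRT8, EPCAM, PAX8 and ERBB2 among them, were well above background on all 6 arrays, and so were 7 of 10 markers of other cell types, the leukocyte genes PTPRC, CD3E and CD14 and the endothelial genes PECAM1 and VWF and the fibroblast and mural genes COL1A1 and PDGFRB. The other fibroblast genes were well above background on 5 arrays for COL1A2, with a log2 fold change of 1.62 (limma, unadjusted p = 0.0701), on 1 for LUM and on 0 for DCN. Among the ovarian carcinoma markers, MUC16 was lower on each VD array than on any vehicle array, at -0.71 (limma, unadjusted p = 0.00793, adjusted p = 0.712). KRT19 had -0.74 (limma, unadjusted p = 0.0493), and the rest had an unadjusted p above 0.05 in limma. The log2 of the summed signal of the 10 other markers was 3.42 to 3.71 on the VD arrays and 3.40 to 3.51 on the vehicle arrays. For the 8 ovarian carcinoma markers it was higher, 9.53 to 9.83 on the VD arrays and 9.70 to 10.00 on the vehicle arrays. This sum is led by its brightest probe, that of KRT7, with means of 8.80 on VD and 9.09 on vehicle arrays. KRT18 (0.27 on VD and 0.13 on vehicle arrays) and MUC16 (0.53 and 1.24) had lower means than CD14 (1.97 and 1.78). The probes of COL1A1, PDGFRB, KRT18, PAX8 and ERBB2 match transcripts that retain an intron. The part of the other markers in the results was not tested.

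The unfolded protein response is set off when misfolded proteins gather in the endoplasmic reticulum. The sensors IRE1 (ERN1), PERK (EIF2AK3) and ATF6 then raise chaperones and folding enzymes through the transcription factors XBP1 and ATF6, while PERK phosphorylates the initiation factor eIF2, which lowers translation in general and favours that of ATF4. ATF4 is also reached by kinases that sense amino acid shortage, and its targets make serine, asparagine and one-carbon units, import amino acids and include the stress regulators DDIT3 (CHOP), TRIB3 and CHAC1, so that the chaperone branch and the ATF4 branch can move separately.

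The sequence elements known for these branches are shown first, as a description of the promoters. RefSeq promoter windows of GRCh38.p14, from 250 bases before to 50 after the transcription start, were at hand for 37 of the 41 genes and were searched on both strands. The endoplasmic reticulum stress element ERSE, CCAAT and CCACG with 9 bases between them, was found in 5 of the 14 chaperone and folding enzyme windows and in that of XBP1, against 0.0769% of 35116 windows. Each line runs 5′ to 3′ on the gene's strand, with the element in capitals, reverse complemented where it lies on the other strand.
HSPA5, chr9:125241386-125241414, minus strand: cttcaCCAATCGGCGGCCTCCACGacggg
HSP90B1, chr12:103930211-103930239, plus strand: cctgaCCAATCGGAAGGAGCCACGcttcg
HSP90B1, chr12:103930316-103930344, plus strand: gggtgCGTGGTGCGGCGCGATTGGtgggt
CALR, chr19:12938379-12938407, plus strand: ccacgCGTGGTCGACCATCATTGGtcggt
CANX, chr5:179698773-179698801, plus strand: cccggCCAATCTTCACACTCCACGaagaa
CRELD2, chr22:49918549-49918577, plus strand: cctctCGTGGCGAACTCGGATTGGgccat
XBP1, chr22:28800598-28800626, minus strand: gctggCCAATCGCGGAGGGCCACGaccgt
The shorter ERSE-II, ATTGG and CCACG with 1 base between them, was found in 3 of the 14 chaperone windows, against 0.0541% of all windows.
HERPUD1, chr16:56932016-56932044, plus strand: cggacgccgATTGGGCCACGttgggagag
HYOU1, chr11:119057371-119057399, minus strand: gccccgtgaCGTGGTCCAATcccaggccg
HYOU1, chr11:119057265-119057293, minus strand: ggcctgggaCGTGGTCCAATgagtacgcg
SDF2L1, chr22:21642105-21642133, plus strand: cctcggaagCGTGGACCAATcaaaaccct
The XBP1 element UPRE, TGACGTGG, was in the window of HYOU1 alone among the members, where it overlaps the upstream ERSE-II, and in 0.729% of all windows.

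ATF4 binds with C/EBP partners at a composite element, CARE, searched as TGATGNAA. It was found in the windows of 6 members, against 3.62% of all windows, and 4 of them carry it upstream of the start. HERPUD1 carried both an ERSE-II and a CARE.
ASNS, chr7:97872458-97872487, minus strand: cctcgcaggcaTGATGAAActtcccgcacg
CHAC1, chr15:40953251-40953280, plus strand: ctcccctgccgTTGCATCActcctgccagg
FGF21, chr19:48755459-48755488, plus strand: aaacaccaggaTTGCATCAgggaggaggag
HERPUD1, chr16:56931955-56931984, plus strand: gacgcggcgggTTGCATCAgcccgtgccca
In SLC3A2 and SLC7A1 the match lay after the start. A match describes letters in the window, and the absence of one in the windows of DDIT3, TRIB3, NUPR1 and PSAT1 says only that these letters are not there.

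Over the whole list, the labels separated few members. A change of more than 2-fold at an unadjusted limma p under 0.05, called the 2-fold rule below, was reached by 0 of the 37 tested members, beside 0.81% of all 63337 tested probes and 0.525% of the 19240 tested mRNA probes. An unadjusted p under 0.05 was found for 3 members, PSAT1 and SHMT2 higher and HSP90B1 lower on the VD arrays, beside 6.45% of all probes (3.9% higher and 2.55% lower) and 4.69% of mRNA probes. After Benjamini-Hochberg adjustment over all tested probes 0 members passed, and 0 probes of any kind did, so that none met the stricter rule, stated in the study's methods, which asks for a log2 change beyond 2 in size and an adjusted p below 0.05; the smallest adjusted p in limma was 0.712. The VD and vehicle arrays did not overlap for 3 members, PSAT1 higher and HSP90B1 and PDIA3 lower, beside 11.5% of all probes (6.3% higher and 5.19% lower) and 9.55% of mRNA probes. The share of members called is thus near that of the background by each rule. In sign, 17 members had a log2 fold change above 0 and 20 below, with a median of -0.03, beside 0.00 for all tested probes, of which 50.2% were above 0, and -0.02 for mRNA probes, of which 46.7% were.

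The mean of the 36 detected members, each centered on its own mean over the arrays, was -0.03, -0.00 and 0.18 on VD arrays 1, 2 and 3 and -0.24, 0.00 and 0.09 on vehicle arrays 1, 2 and 3. The labelled groups overlapped, with means of 0.05 ± 0.11 (SD, n = 3) and -0.05 ± 0.17 (SD, n = 3). Behind this flat average the branches went different ways, and much of that lay on VD array 3. The ATF4 arm regulators averaged 1.00 on VD array 3 and between -0.33 and -0.05 on the other 5 arrays, whereas the chaperones averaged -0.37 on VD array 3 and between -0.08 and 0.28 on the others. The enzymes of serine and one-carbon synthesis were above 0 on all 3 VD arrays, at 0.31, 0.34 and 0.21, and below 0 on all 3 vehicle arrays, at -0.54, -0.23 and -0.09. Of these 4 genes only PSAT1 separated the labels, and SHMT2 and PHGDH were read by probes of transcripts that retain an intron. With probes of protein-coding transcripts 3 genes were tested, 2 higher and 1 lower on the VD arrays.

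**Figure D1:**
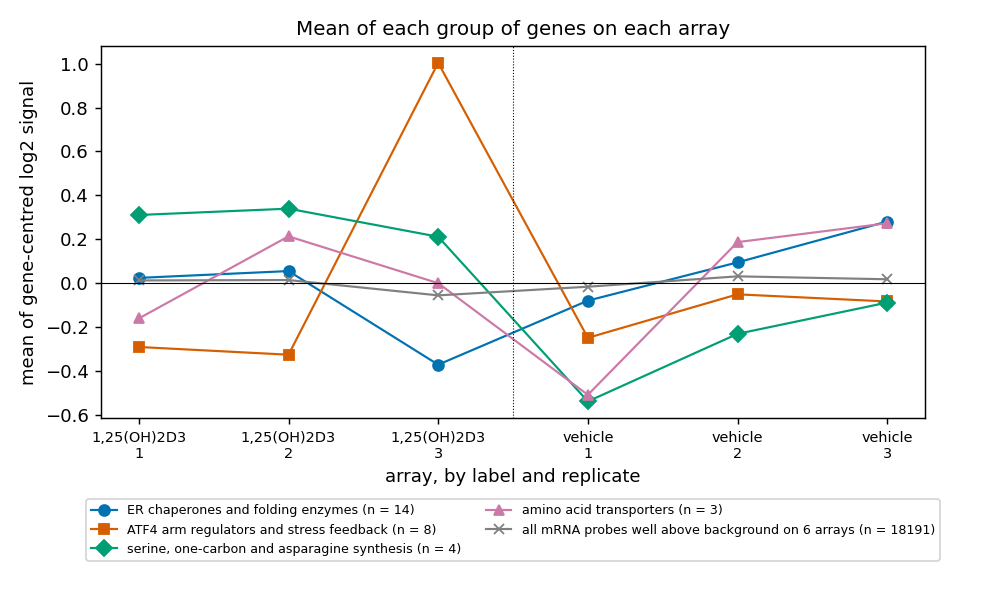
Mean of gene-centered log2 signal (vertical axis) on each of the 6 arrays (horizontal axis) for 4 groups of members and for all mRNA probes well above background on every array; a line joins the values of 1 group and n is its number of genes. The ATF4 arm regulators stand at 1.00 on VD array 3, where the chaperones are at -0.37. The serine group is above 0 on each VD array and below 0 on each vehicle array, with SHMT2 and PHGDH read by probes of transcripts that retain an intron.

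Chaperones and folding enzymes bind proteins of the secretory pathway or form disulfide bonds in them. All 15 tested members of this group had lower means on the VD arrays, with log2 fold changes from -0.74 to -0.02 and a median of -0.19; with the normexp background correction 13 of 15 were lower, and with the authors' log2 values 14 of 15. Single differences were small, and 1 of the 15 had an unadjusted p under 0.05. Of the 14 detected on every array, 11 had their lowest signal on VD array 3, where 23.0% of mRNA probes were lowest. Without VD array 3 the group split into 4 higher and 11 lower with a median of -0.08, and without vehicle array 3 it also split into 4 and 11.

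HSPA5 (BiP) is the central chaperone of the endoplasmic reticulum and the usual readout of the response. Its probe lies in the 3′ untranslated part of exon 8 at chr9:125234870-125234929. The scanner software marked its only spot on VD array 1 as non-uniform, so the value there was left out, and limma used 5 arrays. The log2 signal was -0.81 and -1.62 on VD arrays 2 and 3 and -0.91, -0.40 and -0.11 on vehicle arrays 1, 2 and 3. VD array 3 was the lowest and vehicle array 3 the highest, and the labelled groups overlapped through VD array 2 and vehicle array 1. This gave a log2 fold change of -0.74 with a standard error of 0.33 (limma, unadjusted p = 0.0636). The excluded spot read 6.60 on the same scale, and with it kept the log2 fold change became 1.87 (limma, unadjusted p = 0.355), so that the sign for HSPA5 rests on that exclusion.

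HSP90B1 (GRP94), the chaperone of the same compartment from the HSP90 family, was chosen for its full values after they were seen. Its log2 signal was 6.18, 6.09 and 6.06 on VD arrays 1, 2 and 3 and 6.50, 6.40 and 6.53 on vehicle arrays 1, 2 and 3. Every VD array lay below every vehicle array, although the gap was modest. It had a log2 fold change of -0.37 with a standard error of 0.15 (limma, unadjusted p = 0.0369, adjusted p = 0.712), and a second probe, of a transcript that retains an intron, gave -0.51 with overlapping groups and its lowest value, -0.20, on VD array 3. PDIA3 (ERp57), a disulfide isomerase that works on glycoproteins, was also below on each VD array, with signals of -0.01, -0.28 and -0.23 against -0.00, 0.46 and 0.23. VD array 1 and vehicle array 1 were nearly level, and the log2 fold change of -0.41 had an unadjusted p of 0.0558 in limma.

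The remaining chaperone genes were described by their lowest array. The lectin chaperones CALR and CANX had log2 fold changes of -0.12 and -0.26, and the isomerases PDIA4 and PDIA6 of -0.31 and -0.18. The J-domain partners of BiP, DNAJB9, DNAJB11 and DNAJC3, had -0.03, -0.13 and -0.27, and the DNAJB11 probe also matches another annotated gene. For all 7 of these genes VD array 3 was the lowest. DNAJB9, the widest of them, read -0.20 on VD array 3 and between 0.36 and 1.14 on the other 5 arrays, and without that array its log2 fold change was 0.42. Further probes of chaperone genes were less uniform. Of the 10 detected on every array, 6 were lowest on VD array 3, 3 on vehicle array 2 and 1 on another array. The exceptions were 1 probe of CANX, 2 of HERPUD1 and 1 of CRELD2, and this CRELD2 probe was above on each VD array with a log2 fold change of 0.34 (limma, unadjusted p = 0.118), opposite to the brightest probe. Of the 10 further probes, 6 match transcripts that retain an intron, and 5 of these 6 were lowest on VD array 3. Over all mRNA probes 23.0% were lowest on that array.

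A set of 4 probes of members that differ in their behavior lie wholly within coding sequence and are shown for that reason, 5′ to 3′ in the sense of the mRNA. The first 3 were lowest and the last was highest on VD array 3.
CANX, chr5:179710005-179710064, plus strand, exon 7 of 15: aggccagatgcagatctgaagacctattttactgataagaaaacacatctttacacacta
PDIA4, chr7:149003812-149003871, minus strand, exon 10 of 10: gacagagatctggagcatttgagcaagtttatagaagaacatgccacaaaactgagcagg
PDIA6, chr2:10787286-10787345, minus strand, exon 11 of 13: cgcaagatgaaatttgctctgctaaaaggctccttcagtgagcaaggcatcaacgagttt
CHAC1, chr15:40955616-40955675, plus strand, exon 3 of 3: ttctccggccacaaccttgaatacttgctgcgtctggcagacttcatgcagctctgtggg

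Of the other products of this branch, HYOU1 (GRP170), the nucleotide exchange factor of BiP, had a log2 fold change of -0.27, the secreted factors MANF and CRELD2 of -0.08 and -0.11, HERPUD1, a component of degradation from the endoplasmic reticulum, of -0.02, and SDF2L1, a partner of the J-domain proteins, of -0.19. HYOU1, MANF and HERPUD1 were lowest on VD array 3, SDF2L1 on vehicle array 1 and CRELD2 on VD array 2. SDF2L1 varied most among the vehicle arrays, at 0.50, 1.33 and 2.17. Of the 8 chaperone genes with an ERSE or ERSE-II printed above, 6 had their lowest signal on VD array 3, and so had the 6 with a window but neither element.

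**Figure D2:**
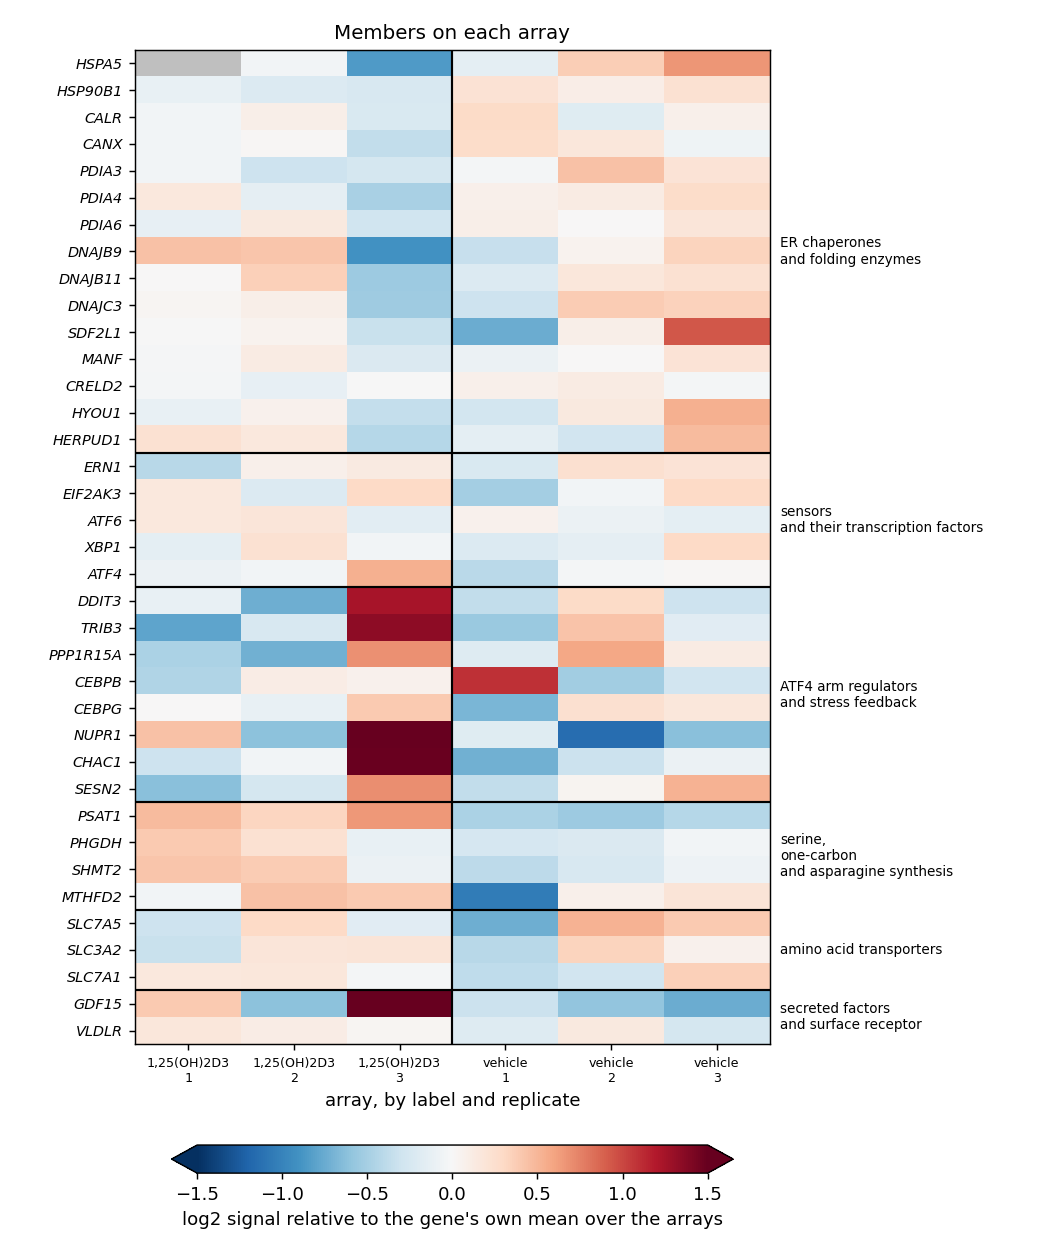
Heat map of the 37 tested members (rows, grouped by role) on the 6 arrays (columns), each cell the log2 signal minus the gene's own mean over the arrays, from blue (below) to red (above), with the color scale ending at -1.5 and 1.5; the gray cell is the HSPA5 spot left out. Most chaperones are blue on VD array 3, while NUPR1, CHAC1, GDF15, TRIB3 and DDIT3 are red there, and PSAT1 is red on the 3 VD arrays and blue on the 3 vehicle arrays.

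The sensors and their transcription factors moved little. ERN1 had a log2 fold change of -0.14, EIF2AK3 of 0.17 and ATF6 of 0.12, and the probe of EIF2AK3 matches a transcript with no defined coding sequence. With the brightest EIF2AK3 probe that matches a protein-coding transcript the value was -0.20. XBP1, which IRE1 splices into its active form, had signals of 3.21, 3.59 and 3.32 on VD arrays 1, 2 and 3 and 3.15, 3.22 and 3.65 on the vehicle arrays. The groups overlapped, vehicle array 3 was highest, and the log2 fold change of 0.03 had a standard error of 0.20 (limma, unadjusted p = 0.87). This probe lies in exon 6 of 6 and reads total XBP1 without regard to splicing.

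ATF4 is raised mainly through its translation, which arrays do not measure. Its mRNA signal was 2.46, 2.51 and 3.09 on VD arrays 1, 2 and 3 and 2.15, 2.53 and 2.57 on vehicle arrays 1, 2 and 3. VD array 3 stood 0.51 above the next highest array, and the other VD arrays lay within the range of the vehicle arrays. The log2 fold change was 0.27 with a standard error of 0.22 (limma, unadjusted p = 0.267), and without VD array 3 it was 0.07.

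Below ATF4, 7 of the 8 regulators and feedback genes had their highest signal on VD array 3, where 10.2% of mRNA probes were highest. DDIT3 (CHOP), the transcription factor tied to death under lasting stress, had signals of 1.33, 0.70 and 2.67 on VD arrays 1, 2 and 3 and 1.07, 1.72 and 1.13 on vehicle arrays 1, 2 and 3. The lowest and the highest of the 6 arrays were both VD arrays, and the log2 fold change of 0.26 had a standard error of 0.47 (limma, unadjusted p = 0.591). Its probe spans an exon junction between chr12:57517417 and 57517743 and so reads spliced RNA. Without VD array 3 the value turned to -0.29.

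TRIB3, a pseudokinase that restrains ATF4, was also highest on VD array 3. Its signals were -0.37, 0.19 and 1.77 on the VD arrays and -0.13, 0.86 and 0.26 on the vehicle arrays, with VD array 1 lowest. Between labels the log2 fold change was 0.20 with a standard error of 0.52 (limma, unadjusted p = 0.711), and it turned to -0.42 without VD array 3. PPP1R15A (GADD34), which guides the phosphatase that restores translation, was highest on VD array 3 at 1.54 but close behind on vehicle array 2 at 1.43, and its log2 fold change was -0.34, or -0.77 without VD array 3 (limma, unadjusted p = 0.0236).

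CHAC1, which degrades glutathione and carries the CARE shown above, was measured by a pair of probes. The brighter one, in the 3′ untranslated part at chr15:40956433-40956492, read 1.59, 1.86 and 3.39 on VD arrays 1, 2 and 3 and 1.18, 1.59 and 1.82 on vehicle arrays 1, 2 and 3. VD array 3 stood 1.52 above the next array and VD array 2 was just above vehicle array 3. The log2 fold change was 0.75 with a standard error of 0.45 (limma, unadjusted p = 0.131). The coding probe printed above read -0.68, -0.63 and 1.99 against -1.73, -0.61 and 0.02, again with VD array 3 on top, by 1.97.

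NUPR1, a small stress-induced nuclear protein, had the widest range of any member, 3.28 on the log2 scale, where the median range of mRNA probes was 0.64. Its signals were 2.64, 1.59 and 4.34 on VD arrays 1, 2 and 3 and 2.02, 1.06 and 1.57 on vehicle arrays 1, 2 and 3. VD arrays 3 and 1 were above every vehicle array and VD array 2 was not. Its log2 fold change was 1.31 with a standard error of 0.63 (limma, unadjusted p = 0.0717), and 0.57 without VD array 3. The probe also matches an overlapping annotated gene, so its signal cannot be given to NUPR1 alone.

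Of the remaining genes of this arm, the bZIP partners of ATF4, CEBPB and CEBPG, had log2 fold changes of -0.19 and 0.19, and SESN2, which restrains mTORC1 when leucine is short, of -0.13. CEBPG and SESN2 were highest on VD array 3. CEBPB was the exception of the 8, with its highest signal, 4.11, on vehicle array 1 and between 2.50 and 3.13 on the other arrays. Without VD array 3, 3 of the 8 genes were higher and 5 lower on the VD arrays, with a median of -0.28 in place of 0.20.

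**Figure D3:**
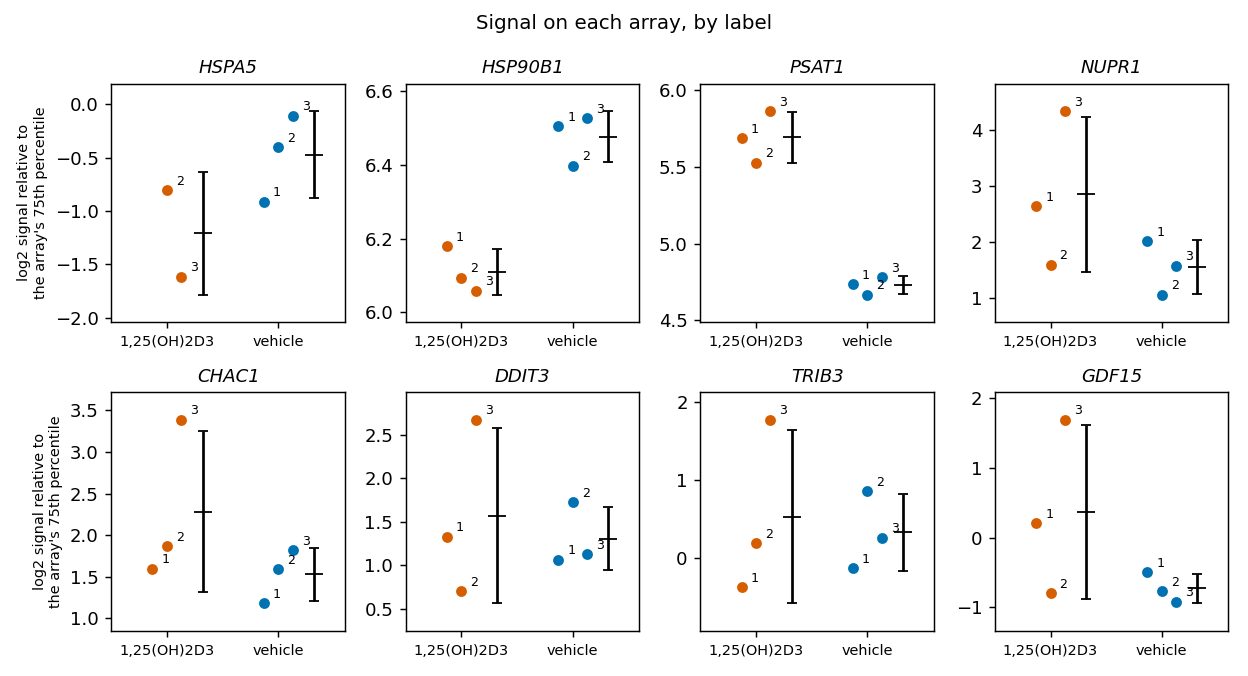
Log2 signal with each array's 75th percentile at 0 (vertical axis, its range set for each gene and not starting at 0) on each array, numbered by replicate, for 8 members; orange points are VD arrays, blue points vehicle arrays, and bars give the mean and SD of each label (n = 3, or 2 for HSPA5 on VD arrays). PSAT1 and HSP90B1 separate the labels, whereas NUPR1, CHAC1, DDIT3, TRIB3 and GDF15 are set apart by VD array 3.

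The serine and one-carbon group held the member with the smallest p. PSAT1, the aminotransferase of the serine pathway, had signals of 5.69, 5.53 and 5.86 on VD arrays 1, 2 and 3 and 4.74, 4.67 and 4.78 on vehicle arrays 1, 2 and 3. All VD arrays were above all vehicle arrays, with means of 5.69 ± 0.17 (SD, n = 3) and 4.73 ± 0.06 (SD, n = 3). The log2 fold change was 0.96 with a standard error of 0.16, a fold of 1.95 (limma, unadjusted p = 0.000337, adjusted p = 0.712). Leaving out each array in turn gave 0.88 to 1.05, and without VD array 3 it was 0.88. Whether PSAT1 goes with CYP24A1 over the arrays was not tested.

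The other enzymes of this group gave positive but less certain values. MTHFD2, of the mitochondrial folate pathway, had a log2 fold change of 0.52, with vehicle array 1 at 2.01 and the other 5 arrays between 3.01 and 3.50. SHMT2, which makes glycine and one-carbon units from serine, had 0.47 (limma, unadjusted p = 0.0412), and PHGDH, which opens serine synthesis, had 0.34 (limma, unadjusted p = 0.102). The brightest probes of SHMT2 and PHGDH match transcripts that retain an intron. The SHMT2 probe in the last exon of the coding transcript gave -0.02 and its other 2 probes 0.46 and 0.01, and the PHGDH probe with 1 mismatch to a coding transcript gave 0.30. Without VD array 3 all 4 genes of the group were higher on the VD arrays and 3, PSAT1, SHMT2 and PHGDH, had an unadjusted p under 0.05, beside 14.9% of all probes and 9.83% of mRNA probes in the same fit.

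ASNS, asparagine synthetase and a standard ATF4 target, could be read only through a probe with 1 mismatch to its transcript, added after the values were seen. It read 0.95, 1.39 and 2.07 on VD arrays 1, 2 and 3 and 0.89, 0.59 and 1.22 on vehicle arrays 1, 2 and 3. VD array 3 was again the highest, the groups overlapped, and the log2 fold change was 0.57 (limma, unadjusted p = 0.0977).

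The brightest probes of the amino acid transporters overlapped between the labels. SLC7A5 and SLC3A2 form the LAT1 exchanger, and SLC7A1 imports arginine and lysine, with log2 fold changes of -0.12, 0.02 and 0.20. A dimmer SLC3A2 probe, of a transcript that retains an intron, was above on each VD array, at -1.15, -0.79 and -1.02 against -1.84, -1.29 and -1.43, with a log2 fold change of 0.53 (limma, unadjusted p = 0.0292), while the other 3 SLC3A2 probes overlapped. All 3 brightest probes were lowest on vehicle array 1, where 17.0% of mRNA probes were lowest. Over the 36 detected members 12 were lowest on that array and 12 on VD array 3, and the others were spread over the remaining 4 arrays.

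GDF15, a secreted stress factor of the TGF-β family, followed the ATF4 arm. Its signals were 0.21, -0.80 and 1.69 on VD arrays 1, 2 and 3 and -0.50, -0.77 and -0.92 on vehicle arrays 1, 2 and 3. VD array 3 stood 1.49 above the next array, and VD array 2 lay among the vehicle arrays. The log2 fold change was 1.10 with a standard error of 0.55 (limma, unadjusted p = 0.0811), and 0.43 without VD array 3. The lipoprotein receptor VLDLR had a log2 fold change of 0.21. STC2, a secreted glycoprotein, read -1.87 on VD array 3 and between -3.06 and -2.21 on the others, and was not well above background on VD array 2 and vehicle array 1.

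**Figure D4:**
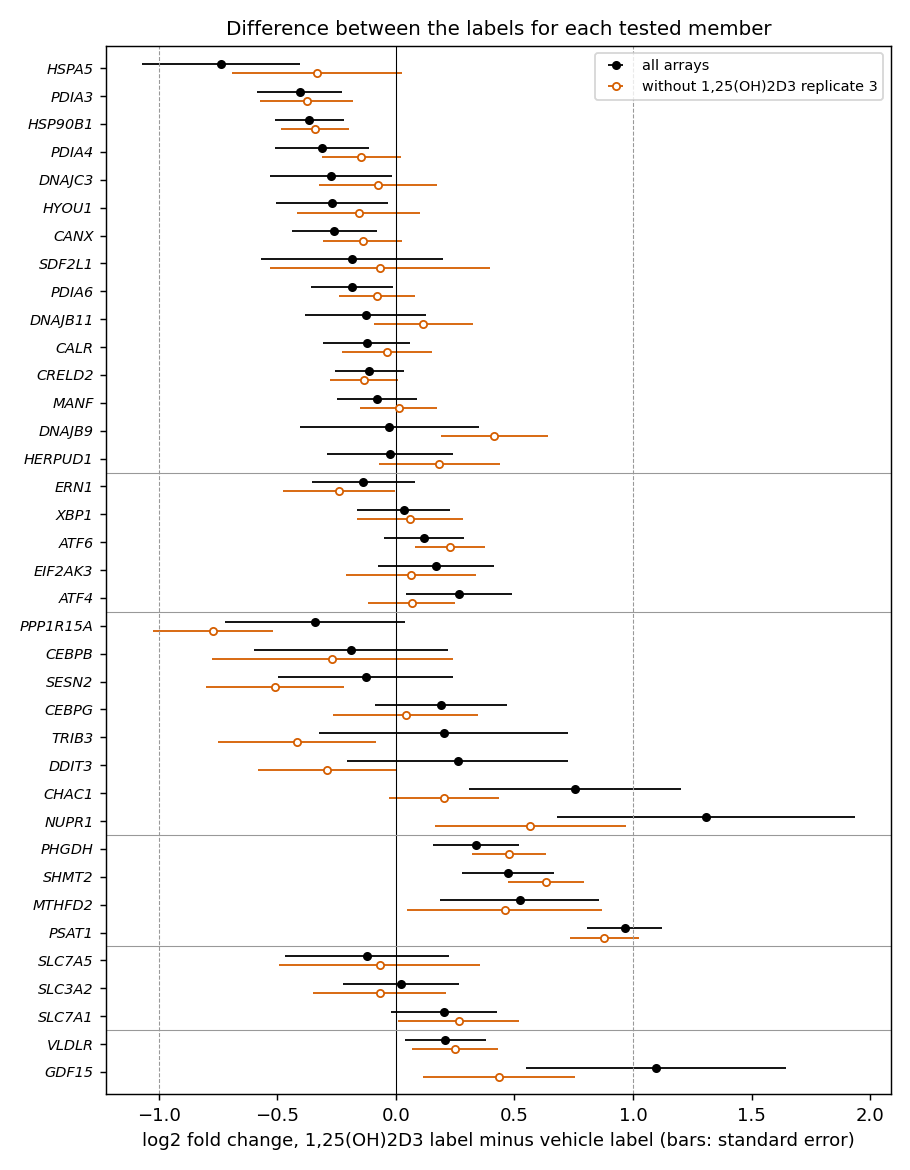
Log2 fold change between the labels (horizontal axis, VD minus vehicle) of the 37 tested members (rows, by role) with all arrays (black) and without VD array 3 (open orange); bars are standard errors from limma and dashed lines mark a fold of 2. Without VD array 3, DDIT3 and TRIB3 pass from above to below 0, DNAJB9 passes from below to above, and PSAT1 goes from 0.96 to 0.88.

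Slide and label were not crossed, so the values within slide 2, which are those of the fit with slide as a block, set VD array 3 alone against the 3 vehicle arrays. There 7 of 37 members passed the 2-fold rule, beside 1.25% of all probes and 0.972% of mRNA probes. NUPR1 was higher by 2.79, GDF15 by 2.42, CHAC1 by 1.86, TRIB3 by 1.44, DDIT3 by 1.36 and PSAT1 by 1.14 on the log2 scale, and HSPA5 had -1.14. An unadjusted p under 0.05 was found for 10 members, 7 higher and 3 lower, beside 4% of all probes and 3.24% of mRNA probes, and 0 passed after adjustment in limma (smallest adjusted p over all probes 0.988). The spread of a single array cannot be measured, and VD array 3 was assumed to vary like the other arrays. Slide 1 held VD arrays only, so it gives no value of its own. What sets VD array 3 apart was not tested. Across all mRNA probes its signal was above the probe's own mean for 39.5%, against 47.6% to 56.2% on the other arrays. Its signal for the first CYP24A1 probe was not well above background, which was also so on VD array 1 and vehicle array 2.

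Of other genes of these pathways 65 were tested. The 2-fold rule was passed by 1 of them, beside 0.81% of all probes, an unadjusted p under 0.05 was found for 2, beside 6.45%, and the labels did not overlap for 8, 4 higher and 4 lower, beside 11.5%. CBS, which makes cystathionine from serine and homocysteine, was the one past the 2-fold rule. Its signals were -0.34, -0.61 and 0.53 on VD arrays 1, 2 and 3 and -1.05, -1.98 and -0.59 on vehicle arrays 1, 2 and 3. The groups touched at VD array 2 and vehicle array 3, and the log2 fold change was 1.07 with a standard error of 0.41 (limma, unadjusted p = 0.0328, adjusted p = 0.712). SLC7A11, the cystine importer, was above on each VD array, with a log2 fold change of 0.57 (limma, unadjusted p = 0.0138).

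By branch, 27 of 34 other ATF4 and integrated stress genes had a log2 fold change above 0 and 7 below, with a median of 0.12, while 8 of 31 other unfolded protein genes were above 0 and 23 below, with a median of -0.05. The share of mRNA probes above 0 was 46.7%. Without VD array 3 the ATF4 genes were split 23 and 11, and the unfolded protein genes turned to 20 above and 11 below, where 52.0% of mRNA probes were above 0. Of the 31 unfolded protein genes 14 were lowest on VD array 3, beside 23.0% of mRNA probes. Of the 34 ATF4 genes 13 were highest on VD array 3, beside 10.2% of mRNA probes. Another array had the same count, since 13 of these 34 genes were lowest on vehicle array 1, beside 17.0% of mRNA probes.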

How the data were processed

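The authors scanned 6 single-color arrays with Agilent Feature Extraction 10.7.1.1, per the labels, and deposited spot intensity on a linear scale, including a processed signal corrected for background within the array. They also deposited log2 values, which were used as an alternative. Their sorted columns agree, so they had been quantile normalized, and their rank correlation with the scanner signal was at least 0.9998. On each array, 175812 spots were not controls, 1837 to 2471 were left out as outliers, 0 were saturated, and 49.1% to 57.5% of probes were well above background. Rank correlations between arrays were 0.934 to 0.960. The number of arrays limits the precision.

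From the intensity, the spots of each probe were averaged in processed signal, log2 was taken, and each array was shifted to a 75th percentile of 0. Probe sequences were matched without mismatch to GENCODE 44 transcripts and placed on hg38 (90604 matched, 26900 to a protein-coding transcript in sense). A probe had to be well above background on every array of 1 label or the other, and those that were entered a fit with limma 3.58.1 in R 4.3.3 without a covariate, with Benjamini-Hochberg adjustment of the p-values over all tested probes. The fit was tested on simulated data. The study states both a cutoff on fold and unadjusted p, used here, and a stricter one on log2 fold change and adjusted p, which no probe passed. Groups follow the labels.

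The members and lists were chosen with earlier results of these data known. Values on each array are given for HSPA5, XBP1, ATF4, DDIT3, TRIB3, CHAC1 and ASNS, for the 5 tested members with the largest absolute log2 fold change, for the 5 with the widest range, and for other pathway genes past fold above 2 with an unadjusted p under 0.05. HSP90B1, PDIA3, SHMT2, SLC7A11, the differences of the markers MUC16 and KRT19, and the dimmer probes of CRELD2 and SLC3A2 were added after their values were seen. Alternatives were quantile normalization, normexp with an offset of 50, the authors' log2 values, other filters and probes, the slide or the replicate number as a block, and each array left out in turn. The lncRNA results and the RT-PCR and cell experiments are not analysed here.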

Additional observations from a re-analysis of the deposited data

How the results depend on the processing

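After adjustment, 0 members passed under every alternative run. The count of members past the 2-fold rule, 0 as reported, became 1 with normexp (PSAT1, log2 fold change 1.02, beside 0.0505% of all probes) and 7 with the slide as a block (beside 1.25%), and ranged from 0 to 4 when single arrays were left out: 1 without VD array 1 (CHAC1, 1.10, beside 0.5% of all probes) and 4 without VD array 2 (HSPA5 at -1.14, NUPR1 at 1.94, PSAT1 at 1.05 and GDF15 at 1.68, beside 1.17%). The count at an unadjusted p under 0.05, 3 as reported, became 1 without a filter on background (beside 4.69%), 10 with the slide as a block (beside 4%), 1 with the mean of all probes of a gene (beside 6.45%), and 1 to 4 when single arrays were left out, with 1 without vehicle array 2 (beside 3.94%), 2 without VD array 1 (beside 2.37%) and 4 without VD array 3 (beside 14.9%). The 1 call among other pathway genes, CBS, became 0 with normexp, and the range over left-out arrays was 0 to 1, with 0 without VD array 1, VD array 3 or vehicle array 2. HSPA5 turned to 1.83 with the authors' log2 values and to 1.87 with its non-uniform spot kept, an alternative chosen after seeing the data, since both include that spot. XBP1 turned to -0.020 with the slide as a block. Over left-out arrays DDIT3 ranged from -0.29 to 0.69, TRIB3 from -0.42 to 0.65 and XBP1 from -0.073 to 0.19, below 0 without VD array 3 for DDIT3 and TRIB3, without vehicle array 1 for TRIB3 and XBP1, and without VD array 2 or vehicle array 2 for XBP1. The cause was not tested. The mean difference of the detected members, 0.096 as reported, was 0.00052 without vehicle array 1, 0.032 without VD array 3, 0.167 without vehicle array 3 and 0.22 with the slide as a block. The median over the tested members, -0.029 as reported, ranged from -0.10 without vehicle array 1 to 0.10 without vehicle array 3, was -0.073 without VD array 2 and -0.095 with probes of protein-coding transcripts, and was also above 0 without VD array 1 (0.038) and with normexp (0.0035). The moves of this mean difference and of this median were smaller than the spread between arrays of the same label, 0.145 for the mean and 0.167 for the median. The spread of 0.145 is that of single arrays and is wider than the standard error of a difference between group means. It therefore does not measure how stable the mean difference is. The moves of counts and of single genes were not set against a spread.

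Replicate numbers are shared between the labels, but same-numbered arrays deviated together with correlations of only 0.12, 0.09 and -0.04, so the numbers were not taken as pairs. With the replicate block the count past the 2-fold rule was 1 (NUPR1, 1.31, unadjusted p = 0.0295 in limma, beside 0.985% of all probes).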
